A study of Mus musculus with 4 samples.

Results

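The 9 genes described here release, remodel or take up fatty acids carried in lipoproteins: Lpl, Lipc, Pltp, Lcat, Cd36, Fabp1, Fabp2, Fabp4 and Fabp5. They were taken by gene symbol, 9 of the 39179 genes in the deposited tables, and each symbol matched 1 gene. Their messenger RNA was compared between 2 libraries of liver tumors from sorafenib-treated mice and 2 libraries from carrier-treated mice. Sorafenib is an oral inhibitor of RAF kinases and of several growth factor receptors. Both groups were C57BL/6 wild-type mice whose hepatocytes had received transposons with Myc and the activated allele NrasG12V by hydrodynamic injection of DNA, and both were dosed every second day for 3 weeks. Carrier-treated mice therefore bore the same driver genes as the treated mice, and a healthy liver was not analysed here. The sources used here do not give the sorafenib dose, the age of the mice or whether a library came from 1 animal or a pool. Nothing says that libraries came from separate mice, so each p-value below covers library-to-library spread that may be technical in part.

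Triglycerides travel in the blood inside chylomicrons and VLDL. Lipoprotein lipase (Lpl), anchored to capillary walls, splits them into fatty acids, and hepatic lipase (Lipc) finishes remnants and trims HDL on the liver's own surface. Pltp moves phospholipids between lipoproteins, and Lcat esterifies cholesterol on HDL. Cd36 brings fatty acids across the cell membrane, and the small FABP proteins carry them through the cytoplasm. Adult hepatocytes are known for Lipc, Lcat and Fabp1, the liver form. Lpl belongs mainly to fat, muscle and macrophages in the adult, Fabp4 to adipocytes, macrophages and capillary endothelium, Fabp5 to epidermis and macrophages, and Fabp2 to the small intestine.

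The 9 genes did not differ in 1 direction. Fabp1, Lipc, Lcat and Cd36 had both sorafenib values above both carrier values, whereas Lpl, Fabp4, Fabp5 and Fabp2 had both below. Pltp overlapped. Thus 8 of 9 members did not overlap, where 58.8% of the 13149 tested genes did not: 4 lay above, where 17.5% did so, and 4 lay below, where 41.3% did so. The differences were larger in sorafenib replicate 2 than in sorafenib replicate 1. In sorafenib replicate 1 0 of 9 members were 2-fold from the carrier mean on the log2(CPM + 1) scale, where 2.74% of genes were 2-fold higher and 3.92% 2-fold lower. In sorafenib replicate 2, 4 members (Lipc, Pltp, Lcat and Fabp1) were at least 2-fold higher, where 6.58% of genes were, and 3 (Lpl, Fabp4 and Fabp5) were at least 2-fold lower, where 23.6% were. No member passed the test: limma on log2(CPM + 1), adjusted over all tested genes, called 0 of 9 members and 0 of 13149 genes (0%), with adjusted p of 0.24 to 0.36 for the members. At an unadjusted limma p below 0.05 there were 3 members (Lipc, Lcat and Fabp1) and 2529 genes (19.2%). edgeR's quasi-likelihood test on the recovered reads also called 0 genes, with 5 members and 2271 genes (17.3%) at an unadjusted p below 0.05. DESeq2 called 2 of 9 members, Fabp1 and Lipc, both higher, and 499 of the 11619 genes to which it gave an adjusted p (4.29%; 3.86% higher, 0.43% lower). Leaving out sorafenib replicate 1 changed the limma count: 8 of 9 members were called, 4 higher and 4 lower, all except Cd36, with 40.8% of 12851 genes (9.46% higher, 31.4% lower). Without sorafenib replicate 2, limma called 0 of 9 members and 3.78% of genes, and without carrier replicate 1 it called 0 of 9 and 0.00795%.

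**Figure D1:**
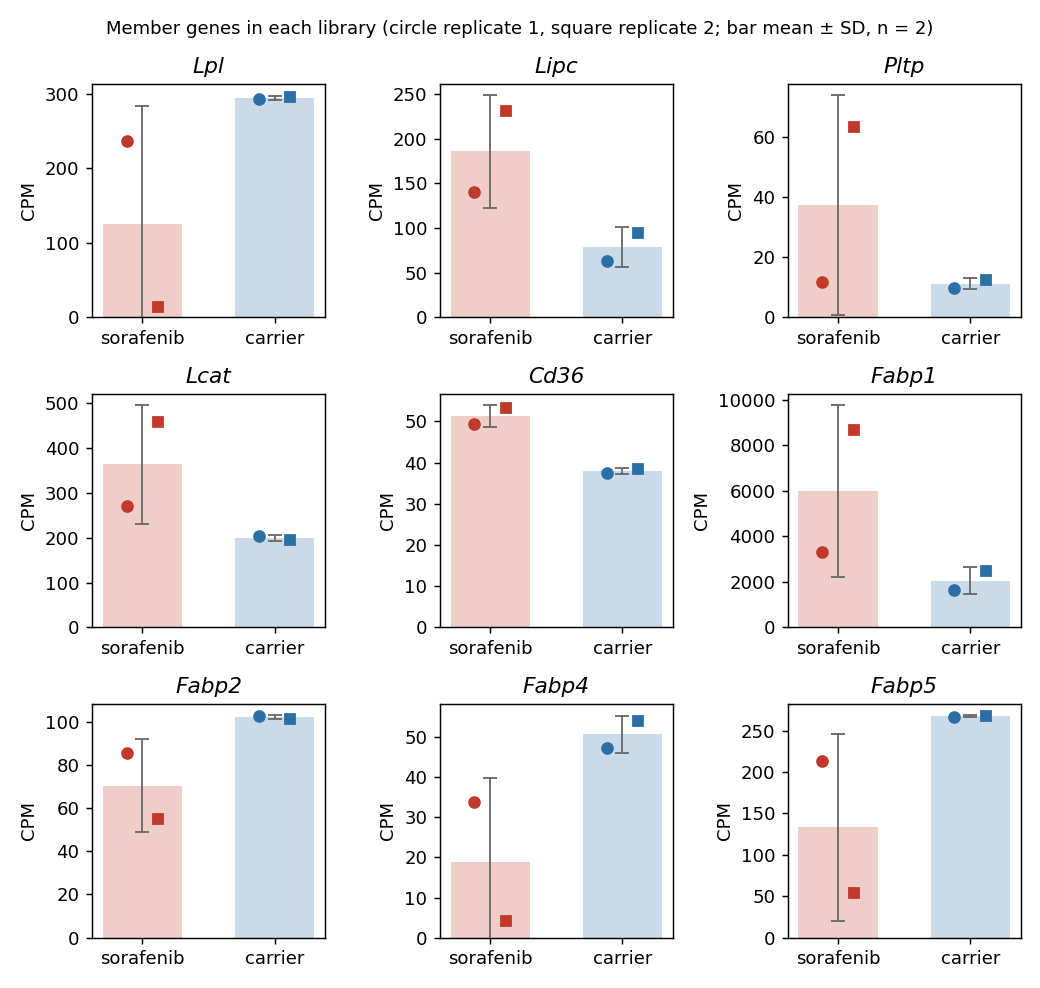
CPM of the 9 genes in each library (vertical axes, linear from 0), sorafenib left and carrier right, with circles for replicate 1 and squares for replicate 2. Bars are means with SD (n = 2 each), and SD lines that pass below 0 end at the axis. The carrier points lie close together in most panels, while the sorafenib points lie far apart for Lpl, Pltp, Fabp1, Fabp4 and Fabp5.

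Depth was 4067427 and 5246530 reads in sorafenib replicates 1 and 2, against 5932939 and 5300806 reads in the carrier libraries. One read equalled 0.169 to 0.246 CPM, so the lowest member value, 22 reads of Fabp4, lay above the floor of 3 reads. Sorafenib replicate 2 stood apart: across genes, which are not independent replicates, its log2(CPM + 1) correlated at 0.975 with sorafenib replicate 1 and at 0.956 and 0.960 with the carrier libraries, whereas the carrier pair reached 0.992. The median difference of all tested genes from the carrier mean was -0.10 in sorafenib replicate 1 and -0.40 in sorafenib replicate 2. For the group difference it was -0.26 on CPM, -0.04 with TMM, -0.02 with RLE and -0.09 with upper-quartile factors. No member changed sign under these 3 scalings. The counts of genes above or below both carrier libraries, here and below, compare CPM without these factors. Genes with small differences could be counted otherwise with them, which was not tested.

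The promoters below, of Fabp1, Cd36 and Lipc, hold a near match to a direct repeat of AGGTCA with 1 base (N) between the copies. PPAR and RXR, and also HNF4A, are known to bind this element. Each promoter is a RefSeq window on GRCm38.p6 from 250 bases before to 50 bases after a start, printed 5′ to 3′ on the gene's strand. Capitals mark the repeat, with up to 2 mismatches on either strand, and the TATA box TATAAA.
Fabp1, chr6:71199629-71199928, plus strand: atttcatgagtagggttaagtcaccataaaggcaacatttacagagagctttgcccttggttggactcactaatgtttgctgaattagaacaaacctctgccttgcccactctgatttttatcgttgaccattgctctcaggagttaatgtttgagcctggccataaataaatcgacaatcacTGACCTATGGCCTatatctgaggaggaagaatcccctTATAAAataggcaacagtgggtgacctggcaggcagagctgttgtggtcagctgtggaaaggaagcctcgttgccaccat
Cd36, chr5:17835847-17836146, minus strand: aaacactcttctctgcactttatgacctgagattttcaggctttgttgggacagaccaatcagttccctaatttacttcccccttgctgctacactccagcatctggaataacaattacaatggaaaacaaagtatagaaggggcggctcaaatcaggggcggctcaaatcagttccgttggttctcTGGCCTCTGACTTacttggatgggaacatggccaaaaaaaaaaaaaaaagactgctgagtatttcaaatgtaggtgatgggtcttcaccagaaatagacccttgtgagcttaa
Lipc, chr9:70934759-70935058, minus strand: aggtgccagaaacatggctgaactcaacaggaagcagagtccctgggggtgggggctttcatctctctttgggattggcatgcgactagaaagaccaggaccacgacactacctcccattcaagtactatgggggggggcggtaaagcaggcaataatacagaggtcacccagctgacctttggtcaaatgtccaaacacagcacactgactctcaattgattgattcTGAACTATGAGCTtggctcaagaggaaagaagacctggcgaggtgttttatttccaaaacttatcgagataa

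In Fabp1 the repeat had 1 mismatch and lay at bases -67 to -55 from the start, ahead of a TATA box at -30 to -25. The matches in Cd36 (-63 to -51) and in Lipc (-22 to -10) had 2 mismatches each. The Cd36 window lies inside the annotated gene (17781690 to 17888801), so it is not at the outermost start. Which start of Cd36 was used in these libraries was not tested. The Lipc window belongs to the start of the principal transcript, and the other RefSeq start of Lipc had no match. Promoters were found for 6 of the 9 genes (7 windows), with none matched for Lpl, Fabp4 or Fabp5. The repeat was in 3 of these 7 windows and in 3.86% of 32851 windows of the same length. The single half-site AGGTCA, which overlaps the repeat in Fabp1, was in 3 of 7 against 16.3%, TATAAA in 2 of 7 against 13.6%, and CCAAT in 6 of 7 against 37.4%. The HNF1 palindrome, GTTAAT and ATTAAC around 1 base (N), with up to 2 mismatches, was in 0 of 7 against 1.36%. Lcat, like Fabp1, Cd36 and Lipc higher in both sorafenib libraries, had only a CCAAT match. Lpl, Fabp4 and Fabp5, all lower, had no window, and a link between the repeat and the direction was not tested. Motifs were searched on both strands and chosen with the sequences in view, and a match is not shown to be a bound site.

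Lpl (ENSMUSG00000015568, chromosome 8, 68880491 to 68907448, plus strand, GRCm38) is the lipase of capillary walls. It was at 237 and 13.2 CPM in sorafenib replicates 1 and 2, against 293 and 297 CPM with carrier. The groups did not overlap, but nearly all of the distance came from sorafenib replicate 2, where Lpl was 22.4 times lower than the carrier mean, while sorafenib replicate 1 was at 80.6% of it. The log2 fold change was -2.35 (SE 1.18, 95% interval -5.21 to 0.51, limma adjusted p = 0.306). Because that value averages logarithms, it is larger than the change of the mean, which was 125 ± 159 CPM in sorafenib and 295 ± 2.69 CPM in carrier tumors (SD, n = 2 each). edgeR and DESeq2, which fit the reads, gave -1.11 each. Without sorafenib replicate 2 the log2 fold change was -0.31.

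Lipc (ENSMUSG00000032207, chromosome 9, 70798128 to 70952226, minus strand), hepatic lipase, lay in the opposite direction. It was at 141 and 231 CPM with sorafenib, against 62.5 and 94.1 CPM with carrier. Both sorafenib libraries were higher than both carrier libraries, and here replicate 1 contributed too, with differences of 0.87 and 1.58 on the log2 scale from the carrier mean. The log2 fold change was 1.22 (SE 0.327, 95% interval 0.43 to 2.02, limma adjusted p = 0.24), the smallest p of the 9 members. DESeq2 called it at 1.56 (DESeq2 adjusted p = 0.0188). Without sorafenib replicate 2 its log2 fold change was 0.87.

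By reads, Lpl was the larger of the pair in every library except sorafenib replicate 2. Lpl took 62.8% (60.3 to 65.2, Wilson 95% interval) of the reads of the pair in sorafenib replicate 1 and 5.39% (4.28 to 6.77) in sorafenib replicate 2, against 82.4% (80.7 to 84.0) and 75.9% (74.0 to 77.7) in the carrier libraries. These shares ignore transcript length, and the intervals cover counting error only. Both sorafenib shares were below both carrier shares.

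Of the 2 HDL remodelling genes, Lcat (ENSMUSG00000035237, chromosome 8, 105939551 to 105943382, minus strand) was at 270 and 457 CPM with sorafenib, against 205 and 195 CPM with carrier. The groups did not overlap, the carrier pair differed little, and the log2 fold change was 0.81 (SE 0.293, limma adjusted p = 0.258), or 0.43 without sorafenib replicate 2. Pltp (ENSMUSG00000017754, chromosome 2, 164839518 to 164857711, minus strand) was at 11.6 and 63.3 CPM, against 9.78 and 12.5 CPM. Only sorafenib replicate 2 was high, 5.69 times the carrier mean, while sorafenib replicate 1 lay between the carrier libraries. The log2 fold change of Pltp was 1.24 (SE 0.732, limma adjusted p = 0.36) and 0.06 without sorafenib replicate 2. Pltp shares 495 exon bases with Ctsa, a lysosomal protease gene on the opposite strand, and the strand setting of the counting is not given in the sources used here. Ctsa was at 182 and 184 CPM with sorafenib, against 234 and 215 CPM with carrier. The part of this overlap in the Pltp values was not tested.

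Cd36 (ENSMUSG00000002944, chromosome 5, 17781690 to 17888801, minus strand), the fatty acid translocase of the cell surface, was at 49.4 and 53.2 CPM with sorafenib, against 37.4 and 38.5 CPM with carrier. It was the member with the most even sorafenib replicates, and both sorafenib libraries stood above both carrier libraries by a small margin. The means were 51.3 ± 2.66 CPM and 38.0 ± 0.754 CPM (SD, n = 2 each), and the log2 fold change was 0.42 (SE 0.223, 95% interval -0.12 to 0.97, limma adjusted p = 0.318). Sorafenib replicate 2, which stood apart for most members, differed little from sorafenib replicate 1 here (0.48 and 0.37 on the log2 scale from the carrier mean).

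Fabp1 (ENSMUSG00000054422, chromosome 6, 71199827 to 71205023, plus strand), the fatty acid carrier of the hepatocyte, was the most abundant member. It was at 3309 and 8652 CPM with sorafenib, against 1633 and 2460 CPM with carrier. All sorafenib values were above all carrier values, although in CPM the distance between the 2 sorafenib libraries was larger than that between the group means. The log2 fold change was 1.42 (SE 0.529, 95% interval 0.13 to 2.70, limma adjusted p = 0.258), and DESeq2 called it at 1.89 (DESeq2 adjusted p = 0.0159). Without sorafenib replicate 2 the log2 fold change was 0.72. Fabp1 alone took 0.331% and 0.865% of all reads with sorafenib, against 0.163% and 0.246% in the carrier libraries.

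The 3 other FABP genes were lower. Fabp4 (ENSMUSG00000062515, chromosome 3, 10204088 to 10208576, minus strand), the adipocyte and macrophage form, was at 33.7 and 4.19 CPM with sorafenib, against 47.4 and 54.0 CPM with carrier. Sorafenib replicate 2, with 22 reads, was 12.1 times below the carrier mean and sorafenib replicate 1 was at 66.5% of it. The log2 fold change was -1.94 (SE 0.821, limma adjusted p = 0.262), or -0.57 without sorafenib replicate 2. Fabp5 (ENSMUSG00000027533, chromosome 3, 10012548 to 10016607, plus strand), the epidermal form, was at 213 and 53.6 CPM, against 267 and 268 CPM. Again both sorafenib libraries were lower and replicate 2 most (log2 fold change -1.31, SE 0.594, limma adjusted p = 0.276), or -0.33 without sorafenib replicate 2. Reads of Fabp5 may be split with related copies elsewhere in the genome such as Fabp5l2, so its value is uncertain.

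Fabp2 (ENSMUSG00000023057, chromosome 3, 122895072 to 122899506, plus strand), the intestinal form, was at 85.6 and 55.1 CPM with sorafenib, against 103 and 101 CPM with carrier. It was detected with 289 to 609 reads per library, while the defining enterocyte genes Sis, Lct, Alpi, Cdx1 and Cdx2 were at 0 in all 4 libraries. Other genes of that list were expressed: Slc5a1, a glucose transporter, was at 23.4 and 1.33 CPM with sorafenib, against 23.1 and 26.0 CPM with carrier, and Vil1, a protein of microvilli, at 3.69 and 0.191 CPM, against 11.1 and 7.55 CPM. Both were lowest in sorafenib replicate 2, where Vil1 had 1 read, below the floor of 3 reads. Fabp2 was lowest there too, and the part of Slc5a1 and Vil1 in its values was not tested. The log2 fold change of Fabp2 was -0.56 (SE 0.269, limma adjusted p = 0.292), -0.25 without sorafenib replicate 2, and -0.30 relative to the median of all tested genes.

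Fabp4 and Fabp5 lie 187 kb apart in the FABP gene cluster of chromosome 3. Of the other genes of that cluster, Fabp9 and Pmp2 had no read in any library, which allows up to 0.738 CPM in the shallowest one, and Fabp12 did not exceed 1.48 CPM. Among the 4 FABP members, Fabp1 held a larger share of reads in both sorafenib libraries. It held 90.9% (90.4 to 91.3, Wilson 95% interval) and 98.7% (98.6 to 98.8) of their reads with sorafenib, against 79.7% (79.0 to 80.4) and 85.3% (84.8 to 85.9) in the carrier libraries. Fabp5 held 5.84% and 0.611%, against 13.0% and 9.30%.

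**Figure D2:**
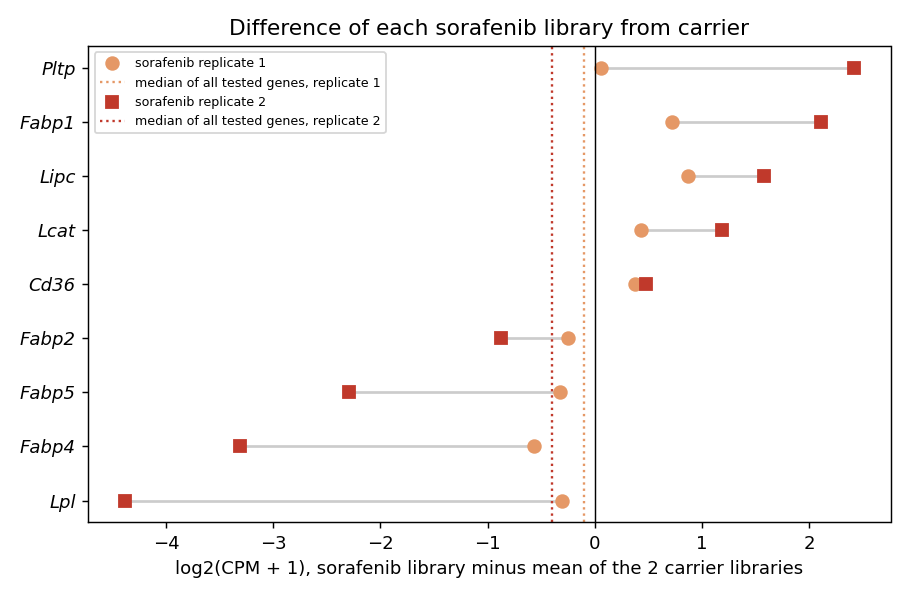
Difference of each sorafenib library from the mean of the 2 carrier libraries on the log2(CPM + 1) scale (horizontal axis) for the 9 genes, with circles for replicate 1, squares for replicate 2 and dotted lines for the median of all tested genes. Each gene lies on the same side of 0 in both libraries, and replicate 2 lies farther out for all 9, from 0.48 for Cd36 to -4.39 for Lpl.

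To compare levels between genes, CPM was divided by the length of the principal transcript (CPM per kb). The order was the same in both carrier libraries: Fabp1, Fabp5, Lcat, Fabp2, Lpl, Fabp4, Lipc, Cd36 and Pltp. Fabp1 was at 5984 and 15646 CPM per kb with sorafenib, against 2954 and 4448 CPM per kb with carrier, far above every other member in each. Lpl was in place 6 in sorafenib replicate 1 with 57.7 CPM per kb and in place 9 in sorafenib replicate 2 with 3.20 CPM per kb, against 71.2 and 72.1 CPM per kb and place 5 with carrier. Lipc was in places 5 and 3 in sorafenib replicates 1 and 2, at 73.4 and 120 CPM per kb, against 32.6 and 49.0 CPM per kb and place 7 with carrier. In sorafenib replicate 1, Fabp5 (215 CPM per kb) and Lcat (201 CPM per kb) were close neighbours, and in sorafenib replicate 2 Fabp2 (57.1 CPM per kb) and Fabp5 (54.3 CPM per kb) were. The gaps in both cases were smaller than the distance between the 2 sorafenib libraries for these genes.

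Lpl, Fabp4 and Fabp5 are also genes of other cell types, and markers of several were lower in the sorafenib libraries. Beside the counts below, 41.3% of all tested genes were lower in both and 17.5% were higher in both. Macrophage markers summed to 222 and 97.0 CPM with sorafenib, against 448 and 469 CPM with carrier, with 13 of 14 genes lower in both and none at 0. Endothelial markers summed to 229 and 98.5 CPM, against 265 and 320 CPM, with 7 of 10 lower in both and none at 0. Stellate cell and fibroblast markers summed to 284 and 224 CPM, against 400 and 610 CPM, with 7 of 10 lower in both and none at 0. In that list 1 gene, Lrat, was higher in both. Oncofetal tumor markers differed most, at 15463 and 120 CPM, against 38461 and 33303 CPM. Of these, 7 of 10 were lower in both and 1, Peg3, was higher in both, with Cpe and Igf2bp3 at 0 in sorafenib replicate 2. The part of these cells and of the tumor markers in the values of Lpl, Fabp4 and Fabp5 was not tested. In such bulk tissue, fewer cells of a type and less RNA per cell cannot be told apart.

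Among adipocyte markers, Lep, Retn and Plin1 were at 0 in all 4 libraries, and Adipoq was at 0.381 CPM in sorafenib replicate 2 and at 0 in the others. Cidea was at 0.246 and 0 CPM with sorafenib, against 1.52 and 0.377 CPM with carrier, and Cfd had 1 read in sorafenib replicate 1. Adrb3, the beta-3 adrenergic receptor, made up nearly all of the list, at 18.2 and 15.1 CPM, against 4.72 and 2.45 CPM, so the sum was 412% and 341% of the carrier mean with sorafenib. The enterocyte and cholangiocyte lists were also carried by single genes. Cholangiocyte markers summed to 521 and 106 CPM, against 472 and 672 CPM, nearly all of it Spp1, with 0 of 6 lower in both sorafenib libraries. The enterocyte list had 2 of 10 genes lower in both, and its sum of 714 and 132 CPM, against 1101 and 797 CPM, came mostly from Apoa4, which hepatocytes also express. Hepatocyte markers were high in each library, with a sum of 107070 and 101040 CPM, against 111320 and 127950 CPM. Most of that sum was Alb, at 79607 and 71696 CPM, against 91592 and 107510 CPM. Of the 10 hepatocyte markers, 7 were higher in both sorafenib libraries, where 17.5% of all tested genes were. Alb and Hpx were lower in both. The part of the hepatocyte markers in the values of Fabp1, Lipc and Lcat was not tested.

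**Figure D3:**
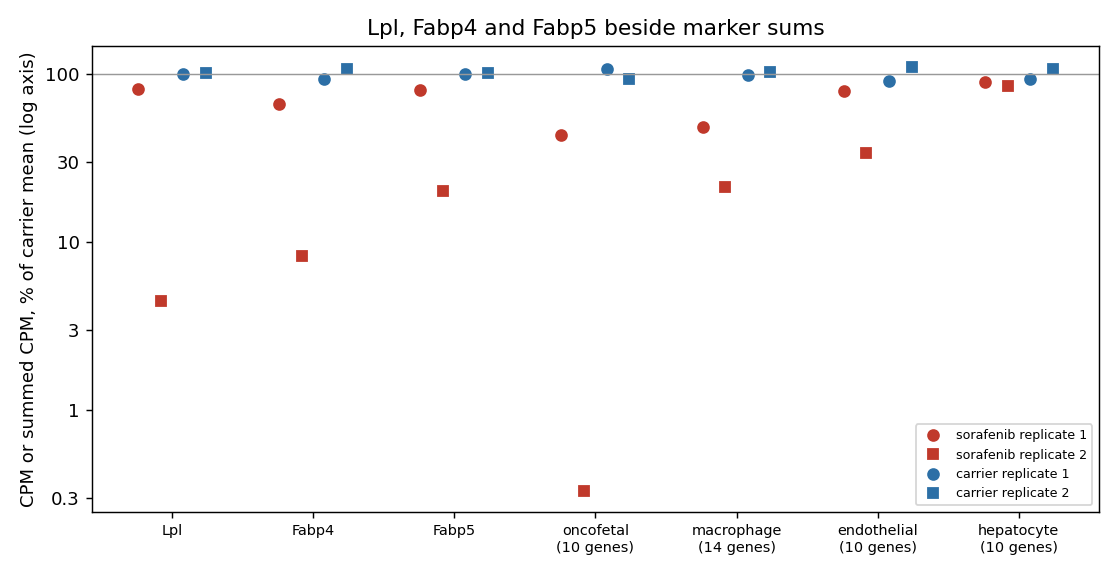
Lpl, Fabp4, Fabp5 and the summed CPM of 4 marker lists in each library, as a percentage of the carrier mean on a log axis, with circles for replicate 1, squares for replicate 2, red for sorafenib and blue for carrier. Sorafenib replicate 2 is lowest in every column. It is at 4.46% for Lpl, 8.28% for Fabp4 and 20.0% for Fabp5. Its marker sums are at 0.334% (oncofetal), 21.2% (macrophage), 33.7% (endothelial) and 84.5% (hepatocyte). The hepatocyte sum is mostly Alb, and 7 of its 10 genes were higher in both sorafenib libraries.

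Genes that control Lpl or sit beside it in the pathway are given next, and 0 of those named passed the limma test. Of 15 cofactors, inhibitors and processing factors of Lpl, 8 were higher and 4 lower in both sorafenib libraries, where 17.5% and 41.3% of all tested genes were, with a median log2 fold change of 0.36, against -0.26 for all tested genes. Angptl4, a secreted inhibitor of Lpl, was at 203 and 477 CPM with sorafenib, against 123 and 55.5 CPM with carrier (log2 fold change 1.90, SE 0.515, limma adjusted p = 0.24). Angptl8, a relative of Angptl4, overlapped between the groups, with 133 and 127 CPM, against 67.4 and 179 CPM.

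The apolipoproteins that tune Lpl differed in direction. Apoc2, the cofactor that Lpl needs, was at 1359 and 289 CPM with sorafenib, against 2454 and 1996 CPM with carrier (log2 fold change -1.82, SE 0.684, limma adjusted p = 0.258), or -0.70 without sorafenib replicate 2. Apoc3, an inhibitor, was at 3685 and 4426 CPM, against 2673 and 1747 CPM. Apoa5, which promotes lipolysis, was at 1040 and 1677 CPM, against 460 and 537 CPM (log2 fold change 1.41, SE 0.304, limma adjusted p = 0.24). Among factors that fold or anchor the enzyme, Gpihbp1, its capillary anchor, was at 16.2 and 6.86 CPM, against 20.9 and 18.9 CPM. Lmf1, which matures the lipase in the endoplasmic reticulum, was at 46.2 and 53.9 CPM, against 38.6 and 38.9 CPM, and its relative Lmf2 at 36.9 and 25.9 CPM, against 59.7 and 43.8 CPM. DESeq2 called 5 of these 15 genes, all higher (3.86% of all genes with a DESeq2 adjusted p), among them Apoc3, Apoa5 and Angptl4.

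Only 2 of 9 other lipases were expressed enough to be tested. Both were higher in both sorafenib libraries, as were 17.5% of all tested genes. Endothelial lipase, Lipg, which acts on HDL phospholipids, was at 13.5 and 35.6 CPM, against 9.44 and 4.90 CPM. DESeq2 called it (DESeq2 adjusted p = 0.0327), where it called 3.86% of all genes with a DESeq2 adjusted p as higher. Lysosomal acid lipase, Lipa, was at 114 and 153 CPM, against 106 and 106 CPM. Among 9 HDL proteins, 3 were higher and 6 lower in both sorafenib libraries, where 17.5% and 41.3% of all tested genes were. The median of the 9 was -0.50, against -0.26 for all tested genes. Pon1, an HDL esterase, was at 605 and 1274 CPM, against 240 and 234 CPM, and Apoa2 at 7279 and 11728 CPM, against 4735 and 3832 CPM. DESeq2 called Pon1 and Apoa2 as higher and no other HDL protein of the list. Apom, which binds sphingosine phosphate, was at 246 and 55.7 CPM, against 443 and 470 CPM, and the HDL receptor Scarb1 at 205 and 110 CPM, against 313 and 291 CPM.

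Among 10 fatty acid transporters and surface proteins, 9 were tested, with a median of 0.10. In both sorafenib libraries 3 were higher and 3 lower, where 17.5% and 41.3% of all tested genes were. Slc27a5, which activates bile and fatty acids, was at 566 and 801 CPM, against 255 and 300 CPM (log2 fold change 1.28, SE 0.258, limma adjusted p = 0.24), and Slc27a2 at 1016 and 1667 CPM, against 548 and 773 CPM. DESeq2 called Slc27a5 and Slc27a2 as higher and no other gene of this list. The caveolae proteins Cav1 and Cav2 were at 3.44 and 2.29 CPM, against 6.74 and 9.62 CPM, and at 1.72 and 2.10 CPM, against 4.05 and 5.09 CPM. Of 10 lipoprotein receptors, 2 were higher and 6 lower in both (17.5% and 41.3% of all tested genes), with a median of -0.37. The remnant receptor Lrp1 was at 423 and 570 CPM, against 357 and 329 CPM. The scavenger receptor Msr1 was at 8.36 and 2.67 CPM, against 10.8 and 18.3 CPM, and Lrp5 at 39.1 and 28.2 CPM, against 52.6 and 52.1 CPM.

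Of 13 other lipid carriers of the cytoplasm, 4 were tested, with a median of -0.45. In both sorafenib libraries 2 were higher and 2 lower, where 17.5% and 41.3% of all tested genes were. Fabp3, the heart form, had no read in any library. Fabp7, the brain form, was at 0.983 and 0.191 CPM with sorafenib, against 2.53 and 4.90 CPM with carrier. Its sorafenib values were 4 reads and 1 read, the latter below the floor of 3 reads. The acyl-CoA carrier Dbi and the sterol carrier Scp2 were higher, at 809 and 1014 CPM, against 590 and 544 CPM, and at 639 and 844 CPM, against 397 and 522 CPM.

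All 15 nuclear receptors and partners were tested, with a median of 0.31. In both sorafenib libraries 5 were higher and 3 lower, where 17.5% and 41.3% of all tested genes were. Ppara, which in liver drives Fabp1, was at 41.1 and 34.1 CPM, against 34.7 and 24.3 CPM, and Pparg, which in fat drives Fabp4 and Lpl, at 11.8 and 8.77 CPM, against 6.57 and 9.81 CPM. Pparg overlapped between groups and so did Ppara. The xenobiotic receptors Nr1i3 and Nr1i2 were at 143 and 335 CPM, against 76.4 and 60.2 CPM, and at 154 and 268 CPM, against 110 and 99.4 CPM. DESeq2 called both, where it called 3.86% of all genes with a DESeq2 adjusted p as higher. Nr1h2 averaged 45.7 ± 0.741 CPM with sorafenib and 57.2 ± 10.2 CPM with carrier (SD, n = 2 each). Rxrb was at 39.1 and 26.9 CPM, against 50.2 and 39.8 CPM.

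**Figure D4:**
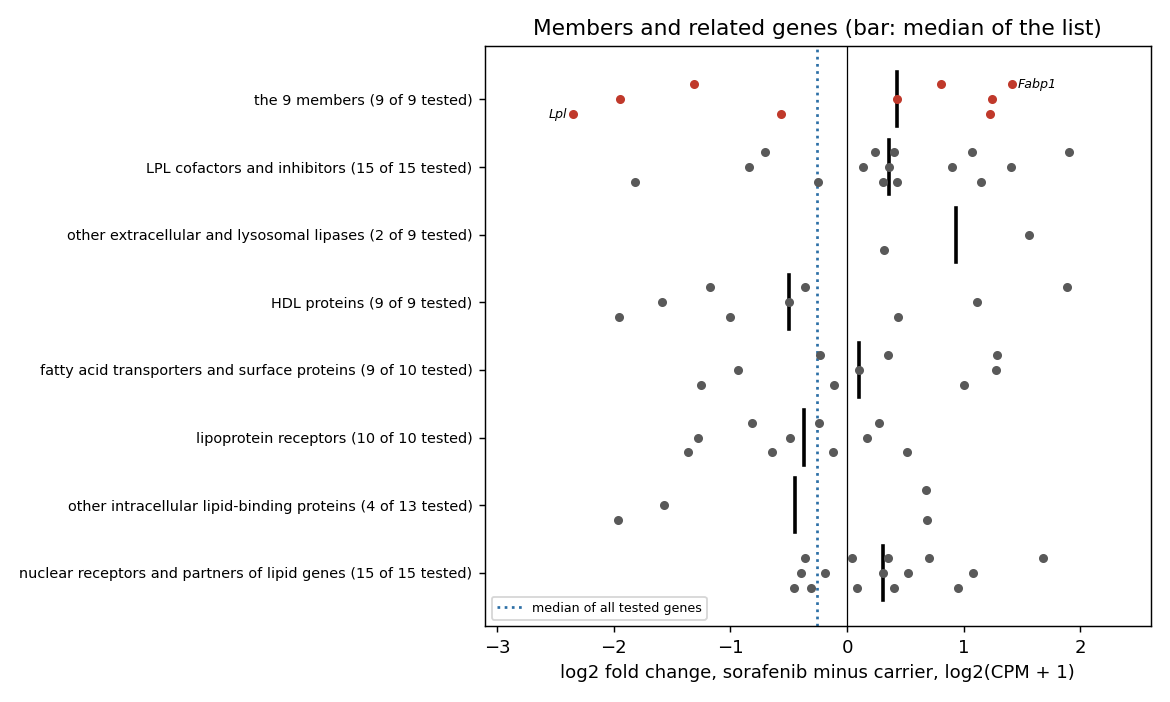
Log2 fold change, sorafenib minus carrier on log2(CPM + 1) (horizontal axis), of the 9 members (red) and of the tested genes of 7 related lists (grey), with a black bar at each list's median and a dotted line at the median of all tested genes, -0.26. The members run from -2.35 for Lpl to 1.42 for Fabp1, and each list except the 2 tested lipases has genes on both sides of 0.

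The counts of higher and lower genes given above were made on CPM only. The list medians moved with the setting. With TMM factors, where the median of all tested genes was -0.04, they were 0.61 for the Lpl cofactors and inhibitors, -0.24 for the HDL proteins, 0.29 for the transporters, -0.12 for the receptors and 0.53 for the nuclear receptors. The median of the transporters was 0.22 without carrier replicate 1 and -0.02 without carrier replicate 2. That of the nuclear receptors was 0.03 without carrier replicate 2 and 0.11 without sorafenib replicate 1. The 4 other cytoplasmic carriers had a median of -0.06 without sorafenib replicate 2 and -0.11 with a pseudocount of 3 or without the filter. It was 0.49 without carrier replicate 1 and 0.62 without carrier replicate 2, where Fabp7 no longer passed the filter and 3 genes remained. Without sorafenib replicate 2 the median was -0.25 for the HDL proteins, -0.11 for the receptors and 0.50 for the 2 lipases. Without the filter, which adds lipases of very low counts, that median was 0.24. Without sorafenib replicate 1 that of the receptors was -0.67.

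For the members at the ends of that range, the genes with the most similar values were sought over the 4 libraries, as the Euclidean distance of log2(CPM + 1) after subtracting the carrier mean. For Fabp1 they were Cyp2c44 (distance 0.036), Hdc (0.077) and Ugt1a5 (0.18). For Lpl they were Sult4a1 (0.25), B4galt6 (0.27) and Golm1 (0.32). Sult4a1 was at 0.191 CPM in sorafenib replicate 2, which is 1 read and below the floor of 3 reads. At so low a value the distance depends on the pseudocount of 1. With 4 libraries these distances describe the libraries and carry no test.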

How the data were processed

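Poly(A) RNA from 2 sorafenib and 2 carrier tumor samples was read as stranded single-end libraries, per the labels' protocols. Tools listed in the submitters' processing notes are STAR 2.6.1c, Subread 1.6.3 and edgeR 3.22.5, with build GRCm38. Each tool's role, and how multi-mapped reads were handled, is not given in the sources used here. The authors deposited CPM per gene, summing to 1000000 per library. Dividing by each library's smallest step recovered whole reads, within 0.01, for 100% of the values above 0.

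limma 3.58.1 (R 4.3.3) was fitted on log2(CPM + 1) with a mean-variance trend to the 13149 genes reaching 1 CPM in 2 or more libraries, with Benjamini-Hochberg adjustment and a threshold of 0.05. Log2 fold changes (sorafenib minus carrier) are on the log2(CPM + 1) scale, which understates changes of low genes. The recovered reads were also tested with edgeR 4.0.16 and with DESeq2 1.42.0. Positions and lengths came from GENCODE M21, and promoters from RefSeq. Depth was 4067427 to 5932939 reads. Replicates were not duplicates of 1 library: their chi-square over its degrees of freedom was 40.9 with sorafenib and 9.09 with carrier.

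The members and lists were chosen with earlier results of these data known. Named genes were all members, the 2 with the smallest limma p in each direction of each related list, 15 genes fixed by name, and the 3 tested genes nearest in pattern to the member with the largest log2 fold change in each direction. Of these, 3 genes are not reported here. Alternatives were other pseudocounts (0.5 and 3), no filter, 3 scalings, edgeR, DESeq2, each library left out, and a replicate term.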

Additional observations from a re-analysis of the deposited data

How the results depend on the processing

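Across 13 alternatives none of the 9 members changed sign. The limma count of 0 genes and 0 members held with both other pseudocounts, without the filter, with all 3 scalings and by edgeR's quasi-likelihood test. DESeq2 called 499 genes and 2 members. Leaving out 1 library gave 0 to 5245 genes and 0 to 8 members: without sorafenib replicate 1 there were 5245 genes (40.8%) and 8 members, all except Cd36, without sorafenib replicate 2 489 genes (3.78%) and 0 members, without carrier replicate 1 1 gene and without carrier replicate 2 0 genes. A lone sorafenib library is assumed there to vary like the carrier pair, and the cause was not tested. Over the alternatives the log2 fold change ran from -4.39 to -0.31 for Lpl, -3.31 to -0.57 for Fabp4, 0.72 to 2.11 for Fabp1 and 0.06 to 2.42 for Pltp, and the adjusted p for Lipc, over limma, edgeR and DESeq2, from 3.05e-05 to 0.81.

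The labels give no shared origin to equal replicate numbers. With the replicate number as a block, limma called 0 genes and 0 members. The differences of replicate 1 from replicate 2 correlated at 0.15 between the groups across tested genes.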
